A study of Mus musculus with 41 samples.

Results

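The genes examined here encode integrins and laminins. They were all mouse (mm10) protein-coding genes whose symbol is Itga or Itgb followed by a digit, or Itgae, Itgal, Itgam, Itgav or Itgax, or Lama, Lamb or Lamc followed by a digit. This rule took 40 of the 21938 protein-coding genes, namely 26 integrin subunit genes, 11 laminin chain genes and 3 genes of integrin-binding proteins (*Itgb1bp1*, *Itgb1bp2* and *Itgb3bp*), which share the first letters of the symbol but are not subunits. The rule used names and no measured value.

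Laminins are trimers of an alpha, a beta and a gamma chain that build the basement membrane under the epidermis, and integrins are alpha-beta pairs that hold cells to laminins, collagens and fibronectin. In basal keratinocytes the alpha 6 beta 4 integrin sits in hemidesmosomes on a laminin that holds the chains of *Lama3* and *Lamb3*, and alpha 3 beta 1 binds the same laminin. High level of these receptors is a known mark of basal epidermal cells.

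The study switched SOX9, a transcription factor of the hair follicle, on in the epidermal stem cells (EpdSCs) of mouse skin and followed it on chromatin by CUT&RUN (CNR), in which an antibody-tethered nuclease releases the DNA around a bound protein. Of 41 samples, 32 stood behind 18 peak lists, 16 of them pooled from 2 samples of a group and 2 from replicate 1 without DOX alone. The other 9 samples (CNR of JUN, ARID1a and BRG1) were not analysed here.

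In skin, the cells came from CD1 mice with K14rtTA, in which the promoter of keratin 14 drives the doxycycline-dependent activator in basal epithelium, and the transgene TRE-myc-Sox9, which adds MYC-tagged SOX9 under doxycycline (DOX). All skin groups carried both transgenes, D0 included. SOX9 CNR covered the uninduced state (D0) and induction for 1, 2, 6 and 12 weeks (W). CNR of MLL3/4, methyltransferases that act at enhancers, covered D0, W1 and W2. The mice were male and 21 (D0), 28 (W1), 35 (W2) and 63 (W6) days old. W12 skin was newborn epidermis grafted to Nude females. Weeks of DOX, age and grafting therefore cannot be told apart. The EpdSCs were sorted with CD49f, which is the protein of the member *Itga6*, at high level, and without CD31, CD45, CD117, CD140a and CD34.

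In culture, keratinocytes from newborn back skin with the same activator carried MYC-tagged SOX9 from a lentivirus that was wild type (WT-SOX9), lacked the transactivation domain (dTA-SOX9) or lacked the HMG domain that binds DNA (dHMG-SOX9). The genotype label of the WT-SOX9 cells is spelled like that of the mice. The MYC tag and MLL3/4 were mapped in all 3 lines with DOX at 1 µg per ml and, for WT-SOX9, also without DOX. Cells with dTA-SOX9 or dHMG-SOX9 were therefore set against WT-SOX9 cells without DOX. In those comparisons line and DOX cannot be told apart. The pair of MLL3/4 samples behind induced WT-SOX9 carry the description replicate 2 but the numbers 1 and 2 in their titles. Each group had 1 pooled list, so the spread of replicates is not known, no test between groups was made, and every difference below is between 2 lists.

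A peak was assigned to a gene when it overlapped the gene body or 20 kb to either side of it. Confidence intervals (CI) are 95% Wilson intervals over peaks and cover counting error only. The SOX9 lists held 792, 15651, 18657, 20579 and 9745 peaks from D0 to W12, so counts per gene follow list length too. The MLL3/4 lists of skin fell in length as well, from 37072 peaks (D0) to 31539 (W1) and 29281 (W2). The weakest peaks of the SOX9 lists held 24 to 59 fragments. In the MYC-tag lists the weakest held 8 to 11, and for pooled MLL3/4 the depth is unknown. The MLL3/4 maxima given below are unscaled and are not comparable between lists. Basal keratinocyte genes all had MLL3/4 peaks at D0 (7 of 7 genes, 66 peaks, 20 of them at *Trp63*). Of the immune markers, *Cd3e* had 5 and *Ptprc*, *Cd207*, *Cd74* and *Lyz2* had 0, and of the endothelial markers *Pecam1* had 13 and *Cdh5* and *Kdr* had 0. Of the fibroblast markers, *Pdgfra* had 2, *Dcn* 1 and *Col1a1* 0, and of the melanocyte and mast cell markers *Pmel* had 2, *Dct* 1 and *Kit* 0. The 5 hair follicle stem cell markers held 10, 9 and 14 MLL3/4 peaks from D0 to W2, of which 8, 8 and 10 were at *Nfatc1*. In the SOX9 lists after induction they held 7, 9, 12 and 6, of which 6, 8, 10 and 5 were at *Nfatc1*. *Lgr5* and *Tbx1* had no SOX9 or MLL3/4 peak in skin. The part of such cells in the results was not tested. Such peaks are occupancy and not expression.

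The sequences around 6 strong new SOX9 peaks at the members are shown first, because the later sections return to these places. Each runs 50 bp to either side of the centre of the signal maximum (mm10, plus strand, 101 bases). Capitals mark matches on either strand to a SOX word or an AP1 word, AP1 being the FOS and JUN family. The SOX word was CCATTGT and, with other first or middle letters, also CCTTTGT and further GCATTGT and lastly GCTTTGT. The AP1 word was TGAGTCA and its reverse complement TGACTCA.
*Itgb4*, 18033 bp before its start, W1, chr11:115956626-115956726: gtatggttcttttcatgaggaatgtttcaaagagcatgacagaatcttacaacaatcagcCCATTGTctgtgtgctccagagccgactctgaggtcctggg
*Itga3*, at an inner start of the gene, W2, chr11:95070390-95070490: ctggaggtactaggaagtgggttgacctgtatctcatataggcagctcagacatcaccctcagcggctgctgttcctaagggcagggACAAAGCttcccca
*Itgb8*, intron, W1, chr12:119227987-119228087: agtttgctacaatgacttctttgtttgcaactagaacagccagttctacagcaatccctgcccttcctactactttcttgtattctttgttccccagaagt
*Lama4*, intron, W6, chr10:38981163-38981263: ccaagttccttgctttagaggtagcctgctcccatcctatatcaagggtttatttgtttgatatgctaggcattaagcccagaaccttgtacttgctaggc
*Lama4*, second intronic place, cultured WT-SOX9, chr10:39044750-39044850: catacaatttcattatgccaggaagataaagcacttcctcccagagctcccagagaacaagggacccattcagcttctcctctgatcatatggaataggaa
*Itga8*, at a coding exon, W12, chr2:12255985-12256085: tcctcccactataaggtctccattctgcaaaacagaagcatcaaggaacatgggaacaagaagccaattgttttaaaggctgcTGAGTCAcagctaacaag
The *Itgb4* window held CCATTGT and the *Itga3* window GCTTTGT on the minus strand. The *Itga8* window held the AP1 word and 0 SOX words, and the *Itgb8* and *Lama4* windows held neither. Over all peaks within reach of protein-coding genes, a SOX word stood in 17.71% (95% CI 17.03 to 18.42) of windows of this length at W1 and an AP1 word in 15.5% (95% CI 14.9 to 16.2). At the members the shares were 17.3% (14 of 81 windows, 95% CI 10.6 to 26.9) and 14.8% (12 of 81, 95% CI 8.68 to 24.1), and windows 1 kb away held a SOX word in 7.41% of cases.

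At the deposited limit of 1800 RPKM, SOX9 peaks were listed at most members after induction. At D0 7 of the 40 had a SOX9 peak (*Itgav*, *Itgb1*, *Itgb4*, *Itgb6*, *Lama2*, *Lamb2* and *Lamc1*), against 3.43% of all protein-coding genes. Members with a peak numbered 26 at W1 (38.5% of all genes had one), 28 at W2 (44.2% of all), 29 at W6 (44.5% of all) and 23 at W12 (26.2% of all). As percentages of the members these are 17.5%, 65.0%, 70.0%, 72.5% and 57.5%. Of the members, 20 had SOX9 peaks at all of W1, W2, W6 and W12 (19.8% of all genes) and 9 had none at any time (46.0% of all genes). Members are long genes, with a median window of 103 kb against 57.4 kb for all genes. Per megabase of window, members had 15.1 SOX9 peaks at W1 and all genes 8.05. Within windows of 60 to 100 kb, 6 of 14 members had a W1 peak against 42.0% of all genes, and within 100 to 200 kb 12 of 16 against 50.5%. Below 60 kb the values were 4 of 5 members against 32.1%, and from 200 kb on 4 of 5 against 53.0%. The 34 other genes of hemidesmosomes, basement membrane, focal adhesions and matrix ligands stood close to the members, with 24 genes and 15.9 peaks per megabase at W1. A limit of 3600 RPKM in place of 1800 left 12 of the 40 members with a peak at W1 and 9 at W12. The share of all genes at that limit was not computed.

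**Figure D1:**
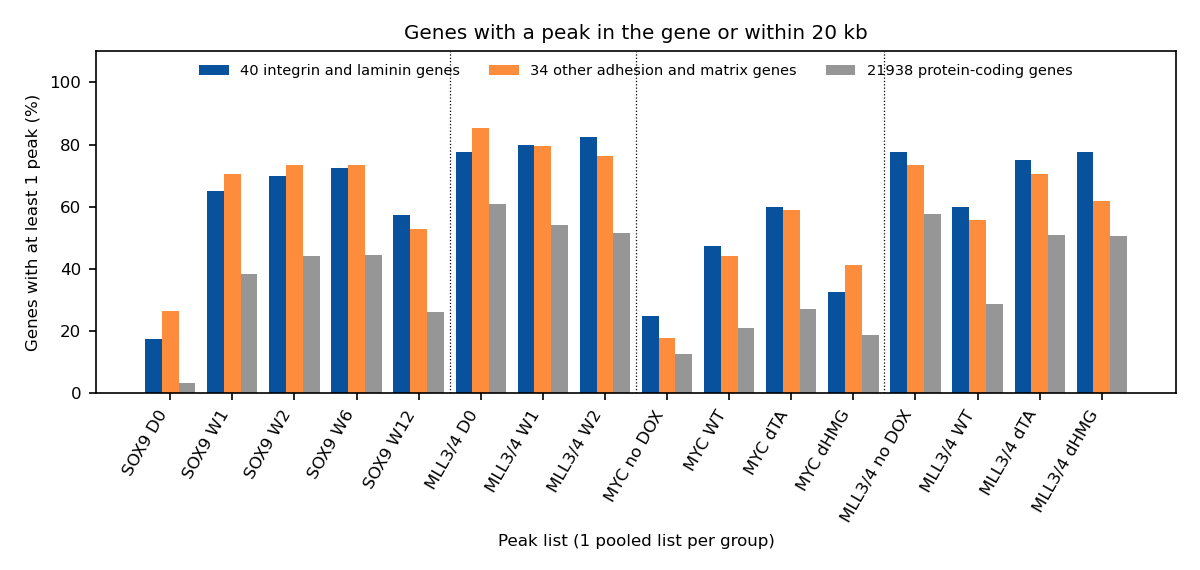
Percent of genes (vertical axis) with at least 1 peak in the gene or within 20 kb, for each of the 16 pooled lists (horizontal axis), in the 40 integrin and laminin genes, the 34 other adhesion and matrix genes and all 21938 protein-coding genes. At W1 the bars stand at 65.0%, 70.6% and 38.5%, and the members stand above all genes in every list.

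**Figure D2:**
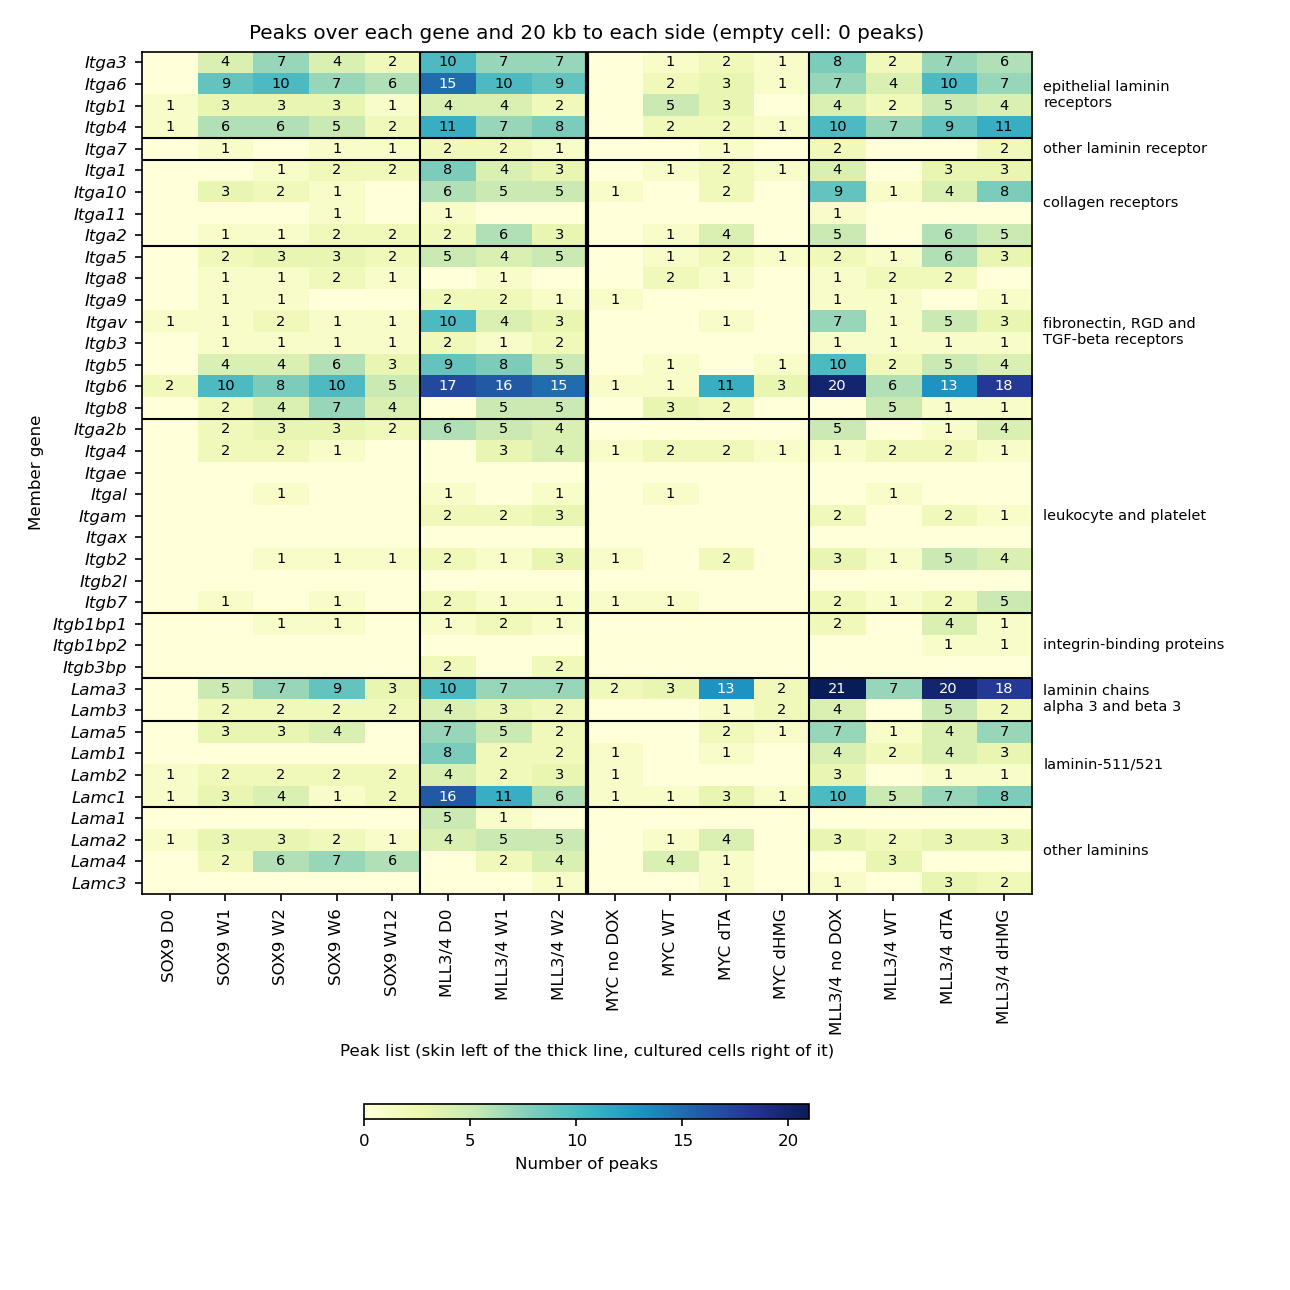
Number of peaks per member reported by name (39 rows, grouped by role) in each pooled list (columns), written in the cell and shown by colour. *Itgb8* and *Lama4* have no peak in the MLL3/4 lists of D0 and of culture without DOX and have peaks in those of W1, W2 and cultured WT-SOX9, while *Lamb1* has 8, 2 and 2 MLL3/4 peaks in skin and no SOX9 peak.

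The 4 genes of the receptors by which epidermis holds to laminin held 22 SOX9 peaks at W1 and 2 at D0. *Itga6*, the alpha chain of hemidesmosomes, had 0 SOX9 peaks at D0 and 9, 10, 7 and 6 at W1, W2, W6 and W12. With lists of equal size, its 9 peaks at W1 came to 3. *Itgb4*, its beta chain, had 1, 6, 6, 5 and 2 over the same times, and its 6 peaks at W1 came to 1 with flanks of 5 kb and to 1 when each peak was given to the nearest gene alone. *Itga3*, whose product pairs with beta 1, had 0, 4, 7, 4 and 2. *Itgb1*, the shared beta chain of most integrins on keratinocytes, had 1, 3, 3, 3 and 1. All 4 genes thus had SOX9 peaks at every time from W1 on, with the lowest counts at W12, where the list was also shortest. Their MLL3/4 counts at D0, W1 and W2 were 15, 10 and 9 for *Itga6*, 11, 7 and 8 for *Itgb4*, 10, 7 and 7 for *Itga3* and 4, 4 and 2 for *Itgb1*. With MLL3/4 lists of equal size, the net change at W1 was -4 at *Itga6* (-5 with the full lists), -1 at *Itgb4* (-4), -1 at *Itga3* (-3) and 0 at *Itgb1* (0). Of their 40 MLL3/4 peaks at D0, 15 had no overlapping peak at W1, where all genes lost 50.1% of theirs, and 4 of 28 at W1 were new, against 37.1% over all genes.

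The highest SOX9 maximum at any member in skin was that of the region before *Itgb4* whose sequence is given above (chr11:115956449-115957169). Its maxima were 13369, 19023, 14986 and 9192 RPKM from W1 to W12, with no peak at D0. MLL3/4 had no peak there at D0 and one at W1 and at W2, with unscaled maxima of 10 and 15. In culture the MYC tag gave 12148 RPKM with WT-SOX9 and no peak without DOX, with dTA-SOX9 or with dHMG-SOX9. MLL3/4 was present there in all cultured lists. Its unscaled maxima were 11 without DOX and 24, 14 and 26 with WT-SOX9, dTA-SOX9 and dHMG-SOX9. Parts of 3 other protein-coding genes lay in the window of *Itgb4*, and the start nearest to this region was its own. By distance to gene bodies, which is how the nearest gene was taken, the region went to another gene.

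Over *Itga6* (chr2:71745616-71858416) and its flanks, 5 of 10 SOX9 regions were present at all 4 times after induction and 8 of 10 lay on D0 MLL3/4 peaks. An intronic region (chr2:71810897-71811318) had SOX9 maxima of 2420, 4202, 6171 and 2574 RPKM from W1 to W12, no MLL3/4 peak at D0 or W1 and one at W2 (maximum 8). It also carried a WT-SOX9 peak of 5089 RPKM in culture. The MLL3/4 peak of *Itga6* with the highest total signal among those lost at W1 lay 3311 bp before its start (maximum 13 at D0), and SOX9 was there at W1 alone, at 1959 RPKM.

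In *Itga3*, all 7 SOX9 regions lay on D0 MLL3/4 peaks. The strongest at W1 and W2, at an inner start (chr11:95069829-95071105), had SOX9 maxima of 3515, 5195, 2267 and 1838 RPKM from W1 to W12. MLL3/4 was listed there at D0, W1 and W2, with unscaled maxima of 27, 14 and 15 that are not comparable between lists. In *Itgb1* 2 of 3 regions carried a cultured WT-SOX9 peak, and the region before the gene (chr8:128666529-128667520) already had a SOX9 peak at D0, of 2244 RPKM, against 4552, 4889, 4911 and 3355 RPKM later.

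*Lama3* and *Lamb3*, the alpha and beta chains of the laminin under hemidesmosomes, had SOX9 peaks at all times from W1 on and none at D0. *Lama3* had 5, 7, 9 and 3 SOX9 peaks from W1 to W12, the most at W6, and *Lamb3* had 2 at each time. MLL3/4 peaks from D0 to W2 numbered 10, 7 and 7 at *Lama3* and 4, 3 and 2 at *Lamb3*. Of the D0 peaks, *Lama3* lost 4 at W1 and gained 1, and *Lamb3* lost 2 and gained 1. With flanks of 50 kb the net change of *Lama3* at W1 turned from -3 to 1.

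*Lamb3* also had a region in the flank before the gene (chr1:193189064-193190146) with SOX9 maxima of 3400, 3514, 7010 and 3217 RPKM from W1 to W12 and no MLL3/4 peak in skin or culture.

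The 4 chains of laminin-511 and its beta 2 form held 8 SOX9 peaks at W1. *Lama5*, the alpha chain of the basement membrane of skin and hair follicle, had 0, 3, 3, 4 and 0 SOX9 peaks from D0 to W12 and 7, 5 and 2 MLL3/4 peaks from D0 to W2. Its net MLL3/4 change at W1, -2, was 0 with lists of equal size and 0 with each peak given to the nearest gene alone. *Lamc1*, the gamma chain of most laminins, had 1, 3, 4, 1 and 2 SOX9 peaks and 16, 11 and 6 MLL3/4 peaks. *Lamb2* had 1, 2, 2, 2 and 2 SOX9 peaks and 4, 2 and 3 MLL3/4 peaks. With flanks of 5 kb, no SOX9 peak was left at W1 at *Lama5* or *Lamb2*. *Lamb1*, the beta chain of laminin-511, had no SOX9 peak at any time and 8, 2 and 2 MLL3/4 peaks. Of the 35 MLL3/4 peaks at these 4 genes at D0, 19 were lost at W1 and 23 at W2, with 4 and 1 gained, where all genes lost 50.1% and 49.7% of theirs. *Lamc1* lost 7 at W1 and 11 at W2, the latter the most of any member.

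**Figure D3:**
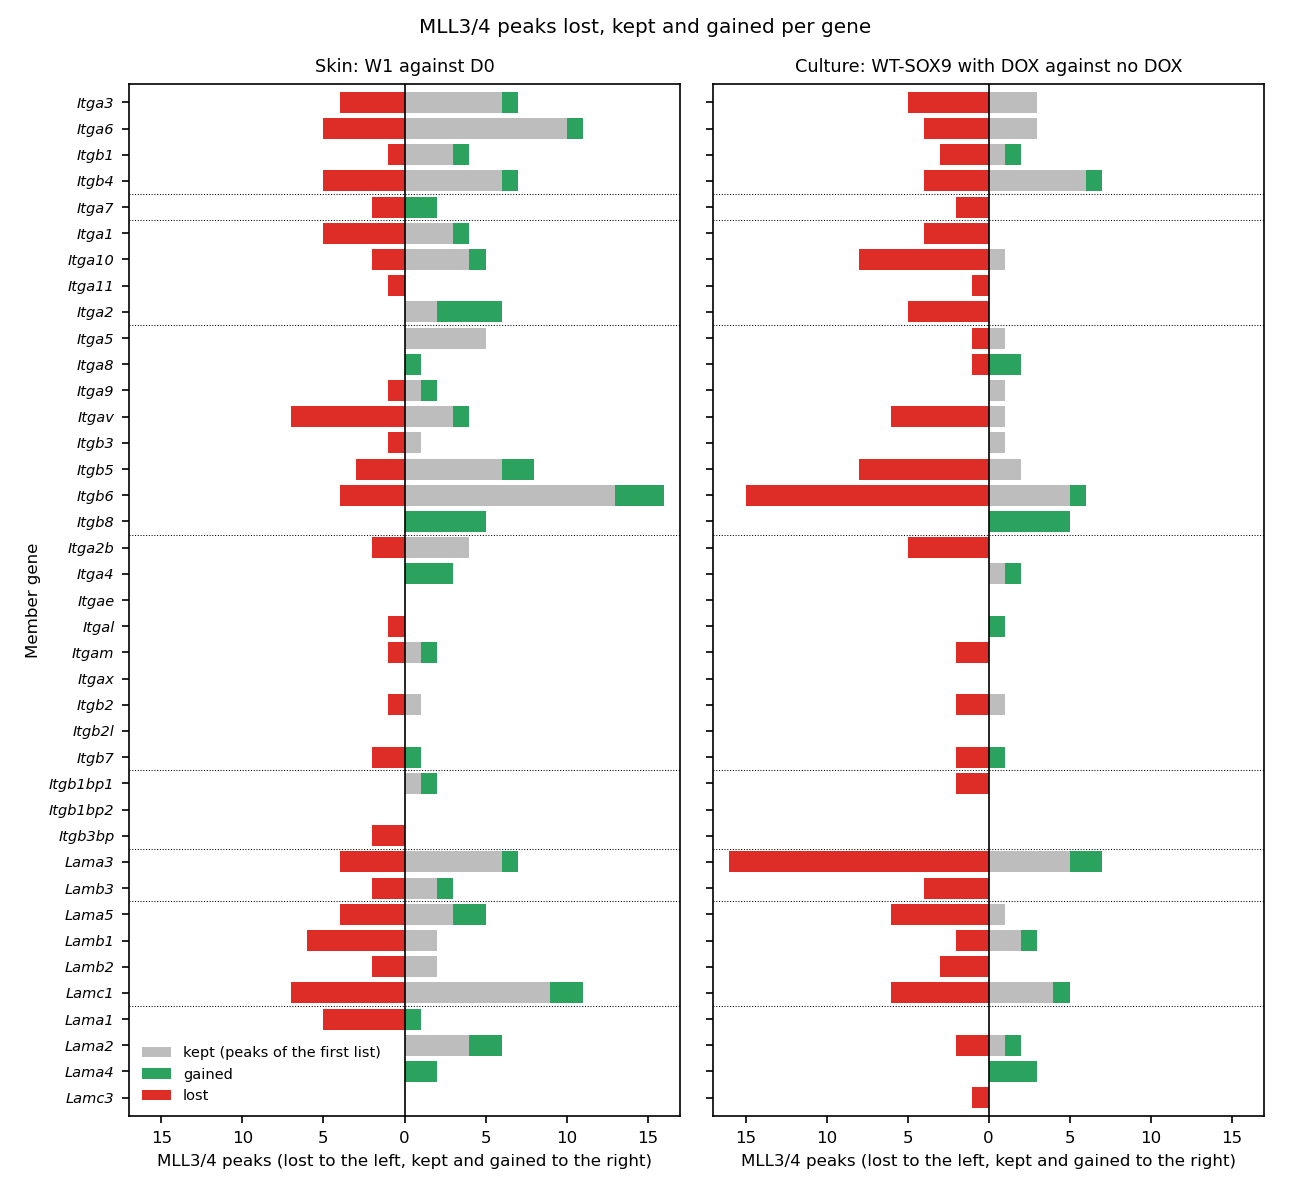
MLL3/4 peaks per member (rows, grouped by role) that were lost (left of 0), kept and gained (right of 0), at W1 against D0 in skin and in WT-SOX9 cells with DOX against no DOX in culture. *Itgb8* and *Lama4* show gains alone on both sides, *Lamb1* and *Lama1* mainly losses in skin, and *Lama3* and *Itgb6* 16 and 15 losses in culture. The 39 members reported by name are shown.

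The remaining laminins differed among themselves. *Lama4*, the alpha chain of vessel and muscle basement membranes, had no MLL3/4 peak at D0 and 2 and 4 at W1 and W2, beside SOX9 counts of 0, 2, 6, 7 and 6 from D0 to W12. *Lama1*, an alpha chain of embryonic basement membranes, had 5 MLL3/4 peaks at D0, 1 at W1 and 0 at W2, and no SOX9 peak. *Lama2*, of muscle and nerve, had 1, 3, 3, 2 and 1 SOX9 peaks and 4, 5 and 5 MLL3/4 peaks over the longest window of all members (679.7 kb). An intronic place of *Lama2* (chr10:27001440-27002624) was among the 3 MLL3/4 peaks of highest total signal gained at W1, with maxima of 8 and 11 at W1 and W2, and SOX9 at those times alone, at 2247 and 1986 RPKM. *Lamc3* had no SOX9 peak and 1 MLL3/4 peak, at W2.

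In *Lama4* (chr10:38965515-39110188), the region of highest total SOX9 signal at W6 (chr10:38980712-38982550, intron) had SOX9 maxima of 3515, 5959, 6716 and 4550 RPKM from W1 to W12 and MLL3/4 maxima of 7 at W1 and 11 at W2. In culture it had an MLL3/4 peak with WT-SOX9 alone (maximum 6) and no MYC-tag peak. The region at its start (chr10:38964652-38965737) had SOX9 from W2 on, at 2445, 4156 and 3355 RPKM, an MLL3/4 peak at W2 (maximum 5), and in culture with WT-SOX9 a MYC-tag peak of 6731 RPKM and an MLL3/4 peak (maximum 13). The other intronic region (chr10:39044647-39045070) had 2766, 3361, 4995 and 5883 RPKM in skin, highest at W12, and no MLL3/4 peak in skin. In culture it held 13133 RPKM of WT-SOX9, 3692 RPKM of dTA-SOX9 and MLL3/4 with WT-SOX9 alone (maximum 13). One other protein-coding gene reached into the window of *Lama4*, and the nearest start was that of *Lama4* at both intronic places.

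Among the receptors of fibronectin, of other RGD ligands and of latent TGF-beta, *Itgb6* and *Itgb8* had different MLL3/4 values before induction. Both beta chains pair with the alpha chain of *Itgav* and activate latent TGF-beta. *Itgb6* had 2, 10, 8, 10 and 5 SOX9 peaks from D0 to W12 and 17, 16 and 15 MLL3/4 peaks, with 10 of its 12 SOX9 regions on D0 MLL3/4 peaks. *Itgb8* had 0, 2, 4, 7 and 4 SOX9 peaks, and 0, 5 and 5 MLL3/4 peaks from D0 to W2, with 0 of 7 SOX9 regions on D0 MLL3/4 peaks and 4 on MLL3/4 peaks of W1 or W2. *Itgav* had 1, 1, 2, 1 and 1 SOX9 peaks and 10, 4 and 3 MLL3/4 peaks, and it lost 7 of the 10 at W1. With the 50% of each list of highest total signal, its net change at W1 was 0 in place of -6. No other protein-coding gene reached into the windows of *Itgb6* and *Itgb8*.

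The intronic region of *Itgb8* (chr12:119227543-119228504) had the highest total signal of all new SOX9 peaks at members at W1 and W2. Its maxima were 9681, 7563, 8479 and 5055 RPKM from W1 to W12. It was also the strongest MLL3/4 peak gained by any member at W1, with an unscaled maximum of 19, and 24 at W2. In culture it had no MLL3/4 peak without DOX. Unscaled MLL3/4 maxima were 31, 10 and 9 in the WT-SOX9, dTA-SOX9 and dHMG-SOX9 lists, while the MYC tag was listed with WT-SOX9 alone (3119 RPKM). At the start of *Itgb8* (chr12:119237773-119239257), SOX9 maxima were 5244, 13981, 7640 and 4182 RPKM from W1 to W12, MLL3/4 maxima were 9 and 12 at W1 and W2, and no cultured list had a peak. Another region (chr12:119194363-119194943) had SOX9 at W6 and W12 alone in skin (4785 and 4182 RPKM), and WT-SOX9 (2955 RPKM) and MLL3/4 (maximum 10) in culture.

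**Figure D4:**
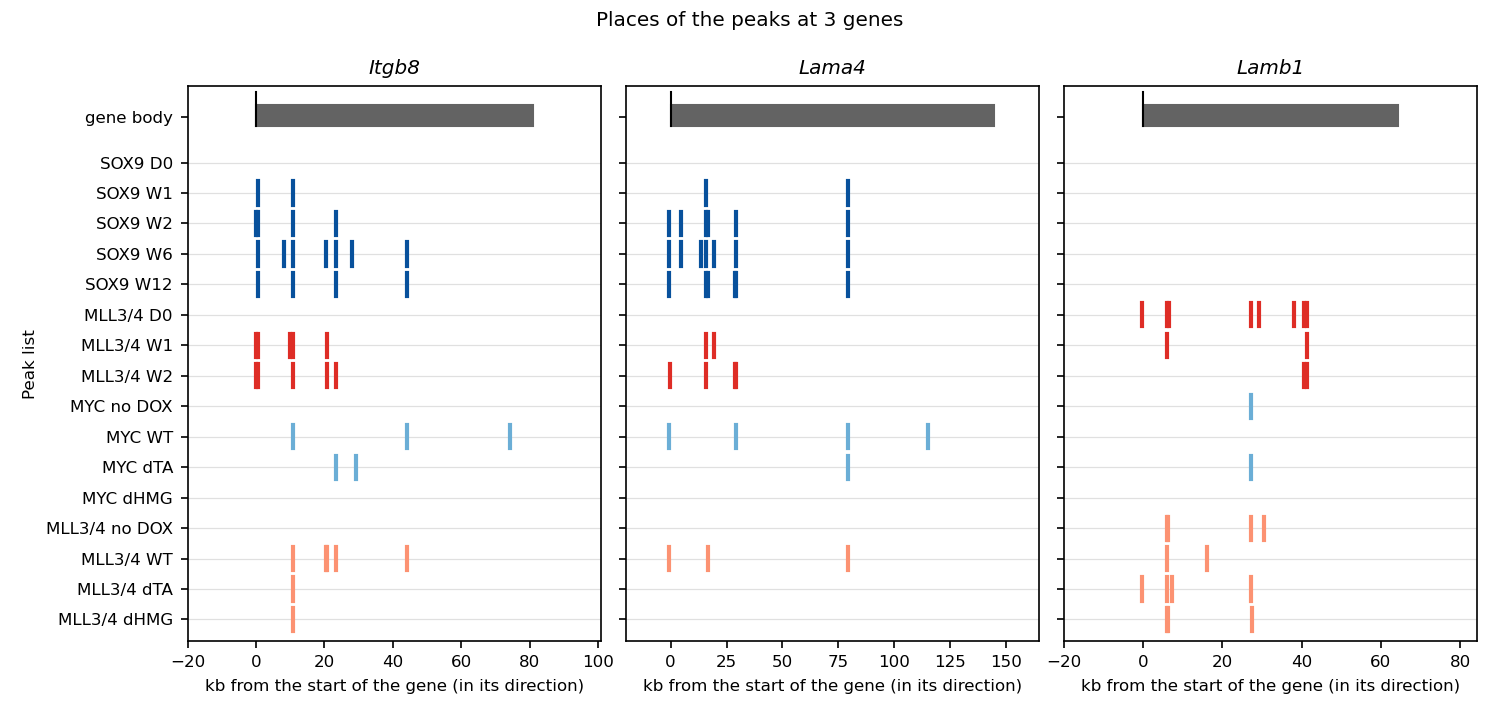
Places of the peak maxima (vertical ticks) in the 16 pooled lists (rows) along *Itgb8*, *Lama4* and *Lamb1*, by distance from the start of the gene in kb, with the gene body as a bar on top. The MLL3/4 rows of D0 and of culture without DOX are empty in the first pair of genes, and the SOX9 rows are empty at *Lamb1*.

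*Itgb5*, a vitronectin receptor chain, had 0, 4, 4, 6 and 3 SOX9 peaks and 9, 8 and 5 MLL3/4 peaks. *Itga5*, of the fibronectin receptor, had 0, 2, 3, 3 and 2 SOX9 peaks and 5, 4 and 5 MLL3/4 peaks. *Itga9*, a tenascin receptor chain, had 1 SOX9 peak at W1 and at W2 and 2, 2 and 1 MLL3/4 peaks. *Itgb3* had 1 SOX9 peak at every time after D0. *Itga8*, whose product binds nephronectin, had 0, 1, 1, 2 and 1 SOX9 peaks and 1 MLL3/4 peak in skin, at W1. Its main region (chr2:12255641-12256340) had SOX9 maxima of 2478, 5424, 10914 and 5699 RPKM from W1 to W12 and no MLL3/4 peak in skin. In culture it held 11491 RPKM of WT-SOX9 and MLL3/4 with WT-SOX9 alone (maximum 8).

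**Figure D5:**
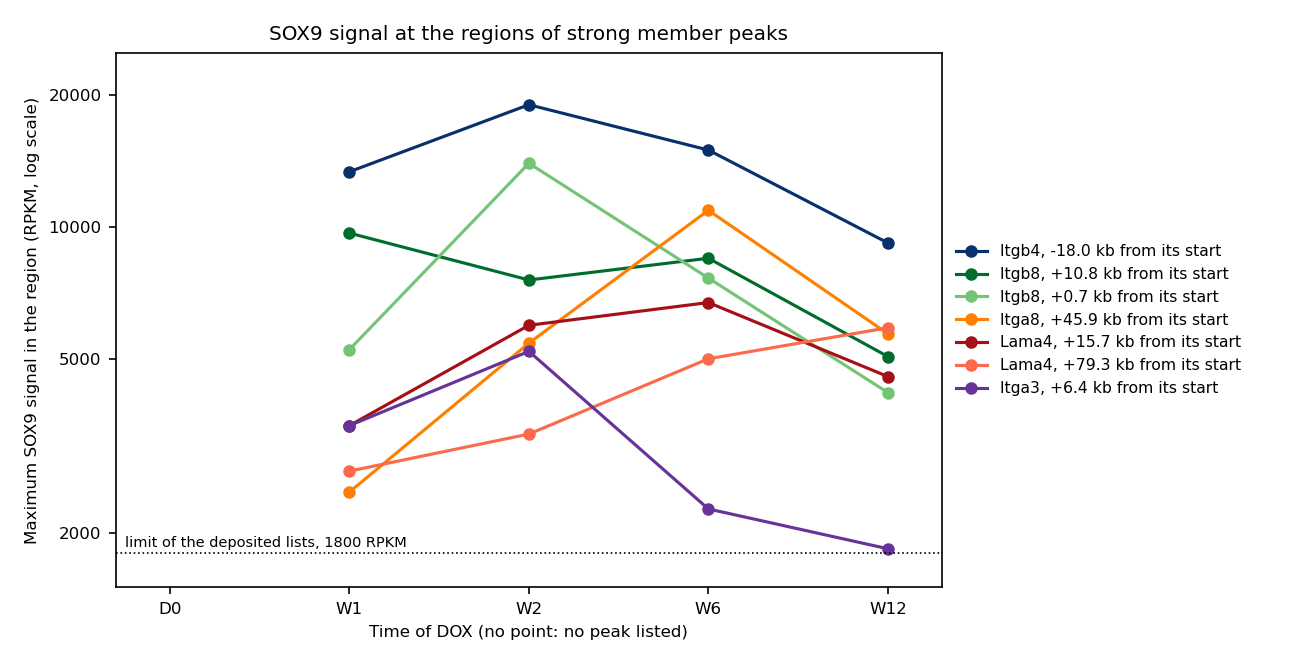
Maximum SOX9 signal in RPKM (log axis) over time at 7 regions of strong member peaks, each named by gene and distance from its start. No region has a point at D0, the *Itgb4* region is highest at every time, and the *Lama4* region farther from the start is highest at W12 while most others stand lower there than at W6.

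Of the 4 genes of collagen receptors, 2, 3, 4 and 2 had a SOX9 peak from W1 to W12, beside 38.5%, 44.2%, 44.5% and 26.2% of all genes. *Itga2*, the collagen receptor chain of keratinocytes, had 0, 1, 1, 2 and 2, and its intronic region (chr13:114838351-114839411) had maxima of 6050, 6723, 4450 and 1838 RPKM. MLL3/4 peaks at *Itga2* numbered 2, 6 and 3 at D0, W1 and W2, with 4 gained and 0 lost at W1. *Itga1*, its neighbour, had 8, 4 and 3, and 2 D0 peaks and 3 W1 peaks count for both genes. *Itga10* had 0, 3, 2, 1 and 0 SOX9 peaks, *Itga11* 1, at W6, and the muscle laminin receptor *Itga7* 1 at W1, W6 and W12.

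Of the 9 leukocyte and platelet integrin genes, 3, 4, 4 and 2 had a SOX9 peak at W1, W2, W6 and W12, beside 38.5%, 44.2%, 44.5% and 26.2% of all genes. *Itgae*, *Itgax* and *Itgb2l* had no peak in any of the 16 lists. *Itga4*, a leukocyte chain that binds fibronectin and VCAM1, had 2, 2, 1 and 0 SOX9 peaks from W1 to W12 and 0, 3 and 4 MLL3/4 peaks from D0 to W2. Its 2 SOX9 regions, in an intron (chr2:79290161-79290741) and over an exon (chr2:79314980-79315556), lay off MLL3/4 peaks at D0 and on them at W1 and W2. *Itga2b*, the platelet chain, had 2, 3, 3 and 2 SOX9 peaks from W1 to W12, which lay at inner starts of the gene except 1 at W6, and 3 other genes reached into its window. *Itgam* had no SOX9 peak. The cells had been sorted without CD45, and the part of leukocytes in these counts was not tested. Of the genes of integrin-binding proteins, *Itgb1bp1* had 1 SOX9 peak at W2 and at W6, and *Itgb1bp2* and *Itgb3bp* had none.

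Of the 81 W1 SOX9 peaks, 11 (13.6%) lay within 1 kb of a start of the member and 34 (42.0%) in introns. SOX9 was within 1 kb of a start in 8 members at W1 (14.4% of all genes) and in 11 at W2 (19.8% of all genes). For MLL3/4 the numbers were 13 members at D0 (33.3% of all genes), 12 at W1 (22.0% of all genes) and 12 at W2 (23.3% of all genes). *Itgb8* had such an MLL3/4 peak at W1 and W2 but not D0, *Lama4* at W2 alone and *Lamb1* at D0 alone.

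Merging the SOX9 lists of W1 to W12 gave 127 regions at members, of which 35 (27.6%, 95% CI 20.5 to 35.9) were present at all 4 times, against 17.3% (95% CI 16.8 to 17.8) at all genes. Regions of 1 time point made up 28.3% (95% CI 21.2 to 36.7) at members and 36.2% (95% CI 35.5 to 36.8) at all genes. All 8 D0 peaks at members had a W1 peak (lower bound of the 95% CI 67.6%), as did 89.8% at all genes. Of the 94 W6 peaks, 51.1% (95% CI 41.1 to 60.9) had a W12 peak, against 37.5% (95% CI 36.7 to 38.3) at all genes. Of the 53 W12 peaks, 94.3% (95% CI 84.6 to 98.1) had a W6 peak, against 85.3% (95% CI 84.4 to 86.1).

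MLL3/4 at the members was then followed over time. Members with an MLL3/4 peak numbered 31 at D0 (60.8% of all genes had one), 32 at W1 (54.0% of all) and 33 at W2 (51.6% of all), while their peaks numbered 192, 146 and 135 in lists of 37072, 31539 and 29281. At W1 4 members had at least 2 MLL3/4 peaks more than at D0 (4.85% of all genes), namely *Itga2*, *Itga4*, *Itgb8* and *Lama4*, and 13 had at least 2 fewer (20.9% of all). The gain of *Itga2*, 4 peaks, was 1 with flanks of 50 kb and 1 with the 50% of each list of highest total signal, and that of *Lama4*, 2 peaks, was 1 with those 50% and 1 with lists of equal size, all below this limit. Among the members with fewer, the net change came within 1 peak of 0 at *Itga6* (-1), *Itgav* (0), *Lama5* (-1) and *Lamc1* (0) with those 50%, and at *Itga3* (-1), *Itgb4* (-1), *Lama5* (0) and *Lamb2* (-1) with lists of equal size. At W2 3 had more (4.18% of all), *Itga4*, *Itgb8* and *Lama4*, and 16 fewer (20.3% of all). As shares of peaks, 45.3% (87 of 192, 95% CI 38.4 to 52.4) of the D0 peaks were lost at W1, against 50.1% (95% CI 49.5 to 50.7) over all genes. At W2 46.9% (95% CI 39.9 to 53.9) were lost, against 49.7% (95% CI 49.1 to 50.2). Of the W1 peaks, 30.1% (44 of 146, 95% CI 23.28 to 38.01) were gained, against 37.1% (95% CI 36.5 to 37.8). The intervals of lost shares at members and all genes overlapped at both times.

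Whether SOX9 lay on lost, gained or kept MLL3/4 peaks was asked with the W1 lists. SOX9 peaks overlapped 7 of 87 lost peaks at members (8.05%, 95% CI 3.95 to 15.7), 16 of 44 gained (36.4%, 95% CI 23.8 to 51.1) and 64 of 102 kept at W1 (62.7%, 95% CI 53.1 to 71.5). Over all genes the shares were 8.20%, 30.4% and 53.8%. Seen from SOX9, 76.5% (62 of 81, 95% CI 66.2 to 84.4) of its W1 peaks at members lay on a D0 MLL3/4 peak and 88.9% (95% CI 80.2 to 94.0) on a W1 MLL3/4 peak, against 69.6% and 80.8% over all genes. Of the 19 W1 SOX9 peaks off D0 MLL3/4, 13 (68.4%, 95% CI 46.0 to 84.6) had MLL3/4 at W1, against 61.5% over all genes. Lost peaks had a lower median total signal at D0 (829) than those kept (1796), in unscaled units of 1 list. Of the 62 D0 peaks whose total signal exceeded 1800, 56.5% were lost among W1 peaks above that limit.

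In culture, MYC-tag peaks were found at 10 members without DOX (12.6% of all genes had one), 19 with WT-SOX9 (20.9% of all), 24 with dTA-SOX9 (27.1% of all) and 13 with dHMG-SOX9 (18.8% of all). The lists held 2242, 6671, 11341 and 3980 peaks in that order. In the list of replicate 1 without DOX alone, 23 members had a peak, beside the 19 of the pooled WT-SOX9 list. The replicate 1 list was not kept to the same limit (6707 peaks, the weakest of 2 fragments). Its share of all genes was not computed, so the 23 cannot be set against a background. *Itgb1* had the most WT-SOX9 peaks, 5, none of them shared with no DOX, followed by *Lama4* with 4, and *Itgb8* and *Lama3* were among those with 3. The new WT-SOX9 peak of highest total signal at any member lay in an intron of *Lama3*, 228763 bp from its start and nearer to the start of *Ttc39c*. Its maximum was 7880 RPKM, with no MYC-tag peak in the other 3 cultured lists and no SOX9 peak in skin. MLL3/4 was listed there with WT-SOX9 (maximum 29) and dTA-SOX9 (maximum 5) and not without DOX. One MYC-tag place, in an intron of *Itga4* at 25681 bp from its start, was listed in all 4 lists, with maxima of 7084 RPKM (no DOX), 10999 RPKM (WT-SOX9), 6769 RPKM (dTA-SOX9) and 13382 RPKM (dHMG-SOX9), over 77 to 110 bp. With dTA-SOX9 the highest counts were 13 peaks at *Lama3* and 11 at *Itgb6*, which had 3 and 1 with WT-SOX9 and 2 and 1 without DOX. Of the 66 dTA-SOX9 peaks at members, 77.3% (95% CI 65.8 to 85.7) lay on MLL3/4 peaks of cells without DOX, against 28.6% (10 of 35, 95% CI 16.3 to 45.0) of the WT-SOX9 peaks. Over all genes these shares were 70.1% and 30.5%. Of the WT-SOX9 peaks, 25.7% (9 of 35, 95% CI 14.2 to 42.1) had a dTA-SOX9 peak and 42.9% (15 of 35, 95% CI 27.98 to 59.14) a W1 SOX9 peak of skin, where the shares over all genes were 19.5% and 39.4%.

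A SOX word stood in 37.1% (13 of 35, 95% CI 23.2 to 53.7) of the WT-SOX9 windows at members, 6.06% (4 of 66, 95% CI 2.38 to 14.6) of the dTA-SOX9 windows and 0 of 17 dHMG-SOX9 windows (upper bound of the 95% CI 18.4%). Over all genes the shares were 33.3%, 12.5% and 5.19%. The WT-SOX9 windows with a SOX word included 2 of 4 at *Lama4*, 1 of 3 at *Itgb8*, 2 of 5 at *Itgb1* and 1 of 2 at *Itgb4*. The AP1 word stood in 11.4% (95% CI 4.54 to 26.0) of the WT-SOX9 windows at members and 30.3% (95% CI 20.6 to 42.2) of the dTA-SOX9 windows, against 6.81% and 24.7% over all genes.

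MLL3/4 in culture was listed at 31 members without DOX (57.8% of all genes), 24 with WT-SOX9 (28.6% of all), 30 with dTA-SOX9 (51.0% of all) and 31 with dHMG-SOX9 (50.7% of all). The WT-SOX9 list was the shortest, with 10543 peaks against 33975, 25948 and 23301. Of the 171 no-DOX peaks at members, WT-SOX9 left 25.1% (95% CI 19.2 to 32.1) in place. For dTA-SOX9 this share was 61.4% (95% CI 53.9 to 68.4), and for dHMG-SOX9 71.3% (95% CI 64.2 to 77.6), both against WT-SOX9 cells without DOX. Over all genes the shares were 18.1%, 55.3% and 58.5%. With lists of equal size, 44.3% were kept with WT-SOX9. At least 2 peaks fewer than without DOX were found at 22 members with WT-SOX9 (32.4% of all genes), 10 with dTA-SOX9 (16.2% of all) and 9 with dHMG-SOX9 (14.0% of all). With WT-SOX9, *Lama3* lost 16 of 21 peaks and gained 2, and *Itgb6* lost 15 of 20.

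At least 2 MLL3/4 peaks more were found with WT-SOX9 at 2 members (0.903% of all genes), *Itgb8*, with 0 peaks without DOX and 5 with WT-SOX9, and *Lama4*, with 0 and 3. With dTA-SOX9 *Itgb8* had 1 and *Lama4* 0, and with dHMG-SOX9 1 and 0. At least 2 more were found at 5 members with dTA-SOX9 (2.57% of all genes), namely *Itga5*, *Itga6*, *Itgb1bp1*, *Itgb2* and *Lamc3*, and at 1 with dHMG-SOX9 (1.72% of all), *Itgb7*. The most among them was at *Itga5*, with 2 peaks without DOX and 6 with dTA-SOX9. Of the 23 peaks gained with WT-SOX9 at members, 13 (56.5%, 95% CI 36.8 to 74.4) lay on a WT-SOX9 MYC-tag peak. Of those gained with dTA-SOX9 and dHMG-SOX9, 2 of 38 and 1 of 21 lay on a WT-SOX9 MYC-tag peak. Over all genes these shares were 53.1%, 2.14% and 3.18%. For dTA-SOX9 and dHMG-SOX9 the MYC-tag list was thus that of another line, and overlap with their own MYC-tag peaks was not computed. *Lama1*, with 5 MLL3/4 peaks in skin at D0, had no peak in any cultured list, and the 8 MLL3/4 peaks of *Lamb1* in skin compare with 4 in culture without DOX.

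The other genes of hemidesmosomes and matrix are given by their counts. All 4 hemidesmosome genes (*Col17a1*, *Dst*, *Plec* and *Cd151*) had SOX9 peaks at W1, W2 and W6, with 12, 18, 11 and 4 MLL3/4 peaks at D0. Of the 11 basement membrane genes, 8 had a SOX9 peak at W1, *Col4a2* the most (10). Of 12 focal adhesion genes, 10 had one, and of 7 matrix ligands 2, beside 38.5% of all genes. At W1, 2 of these 34 genes, *Col4a2* and *Postn*, had at least 2 MLL3/4 peaks more than at D0 (4.85% of all genes) and 14 at least 2 fewer (20.9% of all). With WT-SOX9 in culture the numbers were 0 (0.903% of all) and 18 (32.4% of all).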

How the data were processed

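The authors trimmed and aligned paired CNR reads to mm10 with Bowtie2 2.2.9, used SAMtools 1.3.1, Picard and deepTools 3.1.2 (submitters' processing notes), kept fragments of at most 120 bp, pooled replicates and called peaks with SEACR (stringent, 0.01). For SOX9 and the MYC tag, the deposited maximum of a peak is in RPKM, scaled to library size by the authors and kept above 1800, and its total is that signal summed over the peak. For pooled MLL3/4, the deposited maximum is unscaled signal (coverage) and the deposited total is a score, that coverage summed over the peak, so MLL3/4 maxima are not comparable between lists.

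Peaks were assigned to GENCODE vM21 genes with 20 kb flanks and called shared, kept, lost or gained by an overlap of at least 1 bp, with Python 3.11.15, pandas 2.3.3, numpy 2.4.6, scipy 1.17.1, pysam 0.24.0 and matplotlib 3.10.9. Peaks on mitochondrial DNA were left out (3 or 4 per cultured MLL3/4 or replicate 1 list). RPKM per fragment gave the fragments behind a peak. The procedures were tested on simulated data. No test was made, since each group has 1 list. Named were the members that epidermis is known to use, the 3 members with the most new SOX9 or MYC-tag peaks and the most lost or gained MLL3/4 peaks per list, the leukocyte genes as a group and the 3 strongest new, lost or gained peaks; all other members are named with counts for completeness. Members, gene lists and rules were chosen with earlier results of these data known, and the counts at starts were added afterwards. Alternatives changed the flank, the assignment, the overlap, the peak limits, the list lengths, peak merging, the replicates and the members. Values of 1 member are not reported here by name.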

Additional observations from a re-analysis of the deposited data

How the results depend on the processing

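Of the summary values repeated under each alternative, 118 moved by less than the limit set for them (1.5 times a count, the confidence interval of a share) and 24 by more, of which the values follow. With a maximum above 3600 RPKM, members with a SOX9 peak numbered 0 at D0, 12 at W1, 19 at W6 and 9 at W12, and members with a MYC-tag peak 1 (no DOX), 7 (WT-SOX9), 15 (dTA-SOX9) and 1 (dHMG-SOX9). With flanks of 5 kb, 4 members had a SOX9 peak at D0. With flanks of 50 kb, 16 had a MYC-tag peak without DOX, and the net MLL3/4 change of *Lama3* at W1 reversed, to 1 peak more. With the 50% of each list of highest total signal, 12 members had a WT-SOX9 and 8 a dHMG-SOX9 peak, 37.5% of D0 MLL3/4 peaks were lost at W2, and 17.3% and 58.7% of no-DOX peaks stayed with WT-SOX9 and dHMG-SOX9. With lists of equal size, 12 members had a WT-SOX9 and 14 a dTA-SOX9 peak, while the 10 without DOX and the 13 of dHMG-SOX9 stayed. In that setting 44.3% of no-DOX MLL3/4 peaks were kept with WT-SOX9. With MLL3/4 total signal above 1800, 56.5% were lost at W1, and 9.90%, 53.5% and 53.5% were kept with WT-SOX9, dTA-SOX9 and dHMG-SOX9. Without replicate 2 of no DOX, 23 members had a MYC-tag peak without DOX, and kept shares were 21.9% to 62.4%. Of the values of single genes and words, 237 moved by less, 130 by more and 1 reversed (*Lama3*, above). SOX9 peaks at W1 went from 9 to 3 at *Itga6* with lists of equal size, and from 3 to 0 at *Lama5* and 2 to 0 at *Lamb2* with flanks of 5 kb. With the highest 50% of each list, the net MLL3/4 change at W1 went from -6 to 0 at *Itgav*, from -5 to 0 at *Lamc1*, from 4 to 1 at *Itga2*, from 2 to 1 at *Lama4* and from 5 to 3 at *Itgb8*. The stricter limits and shorter lists hold fewer peaks by construction, and otherwise the cause was not tested. Shares of all genes with a peak were not computed under the alternatives. No paired analysis was possible because each group has 1 pooled list. The weakest peaks of the pooled SOX9 and MYC-tag lists held 8 to 59 fragments, so a gene without a peak may hold signal below the limit.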
